A study of Mus musculus with 6 samples.

Results

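Mesothelial cells line the pleural surface of the lung, and barcodes carrying their marker genes were looked for among GFP+ cells sorted from lungs given repetitive PBS or bleomycin. A barcode was taken when it had at least 1000 unique molecular identifiers (UMIs, 1 per captured transcript molecule), no UMI of Ptprc (the pan-leukocyte protein CD45) or Pecam1 (the endothelial protein CD31), and together at least 3 UMIs of Upk3b, Wt1, Msln and Lrrn4. The barcodes were therefore selected on these measured counts. The rule gave 64 barcodes, 25 from the PBS library and 39 from the bleomycin library, of 16876 deposited barcodes in these libraries and 33286 in the whole series. They were described against 9849 reference barcodes that had Pdgfra UMIs and none of the genes of the rule, 4880 from PBS and 4969 from bleomycin. Only 13 of the 64 barcodes carried more than 1 of the marker genes, and the other 51 carried a single one, which was Wt1 in 49. Krt19, Gpm6a, Pkhd1l1 and Nkain4 are further mesothelial markers, picked after their values had been seen. Together they had UMIs in each of the 13 and none in 36 of the 51. The name mesothelial is therefore not used for all 64, and they are called several-marker and single-marker barcodes. Rspo1, another mesothelial marker, did not divide them this way, with UMIs in 15 of 21 PBS and 18 of 30 bleomycin single-marker barcodes.

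Mesothelial cells form a simple epithelium of mesodermal origin that keeps keratins and cell junctions while also expressing mesenchymal genes. Upk3b encodes a uroplakin, Msln encodes mesothelin at the cell surface, and Lrrn4 encodes a leucine-rich repeat protein used as a mesothelial marker. Wt1 encodes a zinc finger transcription factor of the developing and adult mesothelium, and it is also known from other mesodermal cells. Adventitial fibroblasts (FBs), the matrix-rich FBs around large vessels and airways, and alveolar FBs, among them the lipofibroblasts (LipoFBs), are the main Pdgfra-expressing populations of the lung.

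The cells came from adult male mice with a Pdgfra-EGFP knock-in reporter, in which Pdgfra regulatory sequences drive GFP, so a mesothelial cell entered the sort only if it was GFP+ or was carried along. The PBS group received PBS and the bleomycin group received 1, 1 and 0.5 U/kg bleomycin in 3 once-weekly oropharyngeal doses of 50 μl. Each library pooled the lungs of 3 mice, and each condition had 1 library. No difference between conditions was tested for this reason, the spread between mice is unknown, and all intervals given are exact 95% intervals for counting error only. Lungs were taken 14 days after the last dose, and the 2 single-dose libraries, taken at the same interval, were used only to repeat the rule and the comparisons between the barcodes it found.

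Promoter sequences are shown for Upk3b and Lrrn4, since these genes were found together in 11 of the 13 several-marker barcodes (by definition never in single-marker ones), and they were the 2 of the 4 rule genes present in the promoter table. The sequences are RefSeq, build GRCm38.p6, written 5′ to 3′ on the strand of the gene and ending at the base before the start that GENCODE M21 gives the gene. Capitals mark CATTCC, the core motif of the TEAD family, on either strand, and it began 241 bases before that start in Upk3b and 167 bases before it in Lrrn4. The RefSeq start of Lrrn4 lies further into the gene, 196 bases after the first base of the motif.
Upk3b, chr5:136038246-136038495 (+): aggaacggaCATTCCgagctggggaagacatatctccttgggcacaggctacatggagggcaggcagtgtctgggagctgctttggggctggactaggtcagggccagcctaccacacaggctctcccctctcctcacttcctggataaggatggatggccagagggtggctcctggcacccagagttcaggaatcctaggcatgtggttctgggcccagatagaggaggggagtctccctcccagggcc
Lrrn4, chr2:132880892-132881112 (-): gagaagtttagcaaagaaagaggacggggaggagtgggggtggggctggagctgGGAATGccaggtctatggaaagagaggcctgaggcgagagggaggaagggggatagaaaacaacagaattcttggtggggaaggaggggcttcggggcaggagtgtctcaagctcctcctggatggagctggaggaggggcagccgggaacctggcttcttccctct
For Lrrn4, 221 bases are given because the rest of the window lies in an annotated exon. CATTCC was present in 12.6% of all 32851 promoter windows of 250 bases, and the GC box GGGCGG, found in 32.7% of them, was in neither printed sequence. A match describes the letters in these windows and no binding was measured. In the same build, Upk3b lies at chr5:136038496-136046487 (+), Lrrn4 at chr2:132868305-132880891 (-), Wt1 at chr2:105126529-105173616 (+) and Msln at chr17:25748613-25754378 (-).

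The PBS library held 64697147 UMIs in 6139 barcodes and the bleomycin library 68354458 UMIs in 10737 barcodes. The selected barcodes were deep, with medians of 13775 UMIs in PBS and 14703 in bleomycin, against 10592 and 7788 UMIs in the reference barcodes. The libraries shared 28 barcode sequences, and no selected barcode was among them. Doublets were kept, since no caller was applied.

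The several-marker and single-marker barcodes were set apart by the number of rule genes they carried, so their counts of these 4 genes are a description. Upk3b had UMIs in 12 of the 64 barcodes, Lrrn4 in 12, Msln in 4 and Wt1 in 61. Upk3b and Lrrn4 were found together in 11 of the 13 several-marker barcodes, 4 of 4 in PBS and 7 of 9 in bleomycin, and by definition in no single-marker barcode. Of the 51 single-marker barcodes, 49 had Wt1 alone and 2 had Msln alone. Pdgfra, the gene behind the reporter, had UMIs in 10 of the 13 several-marker and 42 of the 51 single-marker barcodes.

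In the 4 several-marker barcodes of PBS, Upk3b counts ran from 2 to 17 UMIs with a median of 12, and in the 9 of bleomycin from 0 to 31 with a median of 2. Lrrn4 ran from 1 to 7 UMIs (median 5.5) in PBS and from 0 to 12 (median 3) in bleomycin. Both genes thus rested on few molecules per barcode. UMIs were summed over barcodes and divided by their total UMIs, times 1000000 (CPM). In PBS, Upk3b had 892 CPM (646 to 1202) and Lrrn4 394 CPM (237 to 616), while in bleomycin Upk3b had 437 CPM (351 to 539) and Lrrn4 238 CPM (176 to 316). Msln was patchy. It had no UMI in the several-marker barcodes of PBS, which allows up to 76.5 CPM, and 29 UMIs in bleomycin, all in 2 barcodes.

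Wt1, which brought 49 of the 51 single-marker barcodes into the selection, was present in both kinds. In PBS it ran from 0 to 19 UMIs (median 13) in several-marker barcodes and from 0 to 65 (median 13) in single-marker barcodes, with 934 CPM (681 to 1249) and 1125 CPM (1002 to 1258). In bleomycin the medians were 18 and 6 UMIs, and the levels were 899 CPM (773 to 1040) and 622 CPM (550 to 701). The 2 kinds overlapped in both libraries. Pdgfra in the selected barcodes lay below the reference. It stood at 83.0 and 159 CPM in the several-marker barcodes of PBS and bleomycin, at 244 and 172 CPM in the single-marker barcodes, and at 622 and 443 CPM in the reference barcodes, all of which were required to have it.

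**Figure D1:**
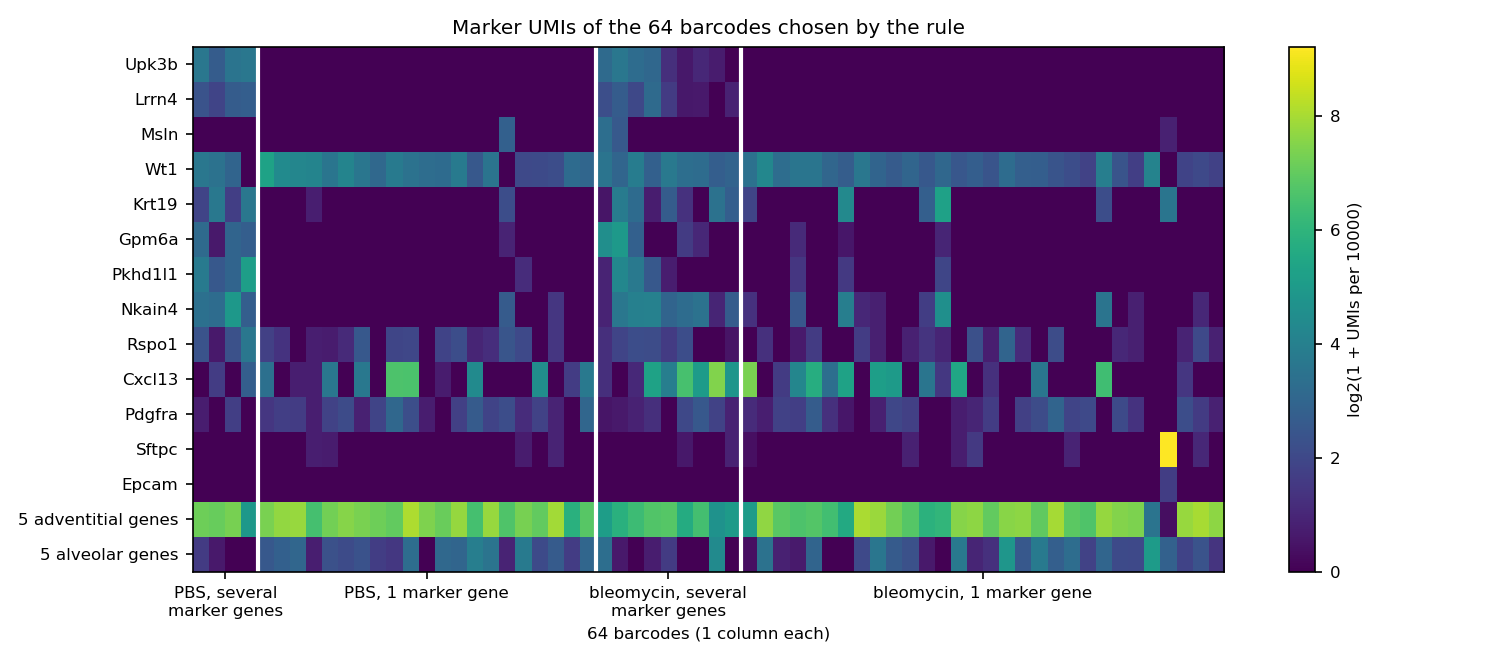
Each column is 1 of the 64 selected barcodes and each row a gene or a sum of 5 marker genes, coloured by log2(1 + UMIs per 10000); white lines part the several-marker and single-marker barcodes of the PBS and bleomycin libraries. Upk3b and Lrrn4 have UMIs in 12 columns each and share 11 of them, Wt1 runs through 61 columns, the adventitial sum is high in nearly all columns, and Sftpc and Epcam stand out in 1 bleomycin column.

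The long noncoding RNA Wt1os, transcribed away from Wt1, accompanied Wt1 in both kinds of barcode. It had 83 UMIs in 19 of the 25 PBS barcodes (261 CPM) and 115 UMIs in 23 of the 39 bleomycin barcodes (182 CPM), against 1 and 6 UMIs in the reference barcodes. Wt1os and Wt1 lie on opposite strands, their 5′ ends are 18 bases apart, and none of their annotated exons overlap. In the single-dose bleomycin library, 25 barcodes with 181 Wt1 UMIs had 1 UMI of Wt1os.

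The number of selected barcodes depended on the threshold and on depth. Just outside the limit, 4 PBS and 14 bleomycin barcodes had exactly 2 marker UMIs, and just inside it, 2 and 6 barcodes had exactly 3. The shares of barcodes that passed the depth, Ptprc and Pecam1 steps were 0.466% (0.302 to 0.688, 25 of 5362) in PBS and 0.487% (0.346 to 0.665, 39 of 8011) in bleomycin. These intervals overlap widely. Among barcodes with at least 5000 UMIs, the shares were 0.469% (0.294 to 0.709, 22 of 4694) and 1.09% (0.768 to 1.499, 37 of 3396), and these intervals did not overlap. Among those with at least 10000 UMIs, they were 0.675% (0.407 to 1.05) and 1.34% (0.909 to 1.89), which overlap. For several-marker barcodes alone, the shares at 5000 UMIs were 0.0639% (0.0132 to 0.187, 3 of 4694) and 0.265% (0.121 to 0.502, 9 of 3396). Those intervals overlap too. Each interval covers counting error within 1 library, so neither overlap nor its absence is a test between conditions.

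Thinning each barcode to 1000 UMIs left an expected 3.99 PBS and 3.65 bleomycin barcodes with 3 marker UMIs, shares of 0.0745% and 0.0455%. The share expected to keep 1 marker UMI at that depth was 0.356% in PBS and 0.570% in bleomycin. At least 1 marker UMI was found, without thinning, in 0.858% of the passing PBS and 1.27% of the passing bleomycin barcodes. Leukocytes gave the background. Of the Ptprc-positive barcodes, 1 of 297 in PBS (0.337%, median depth 5703 UMIs) and 4 of 549 in bleomycin (0.729%, median depth 4572 UMIs) had a marker UMI. The exact intervals of these background shares, 0.00852 to 1.86% and 0.199 to 1.85%, include the shares of the passing barcodes, so 1 marker UMI was not set apart from background. Of the 297 PBS and 549 bleomycin leukocyte barcodes, 0 and 1 reached 3 marker UMIs. Whether the limit of 3 UMIs was set apart from background was not tested.

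**Figure D2:**
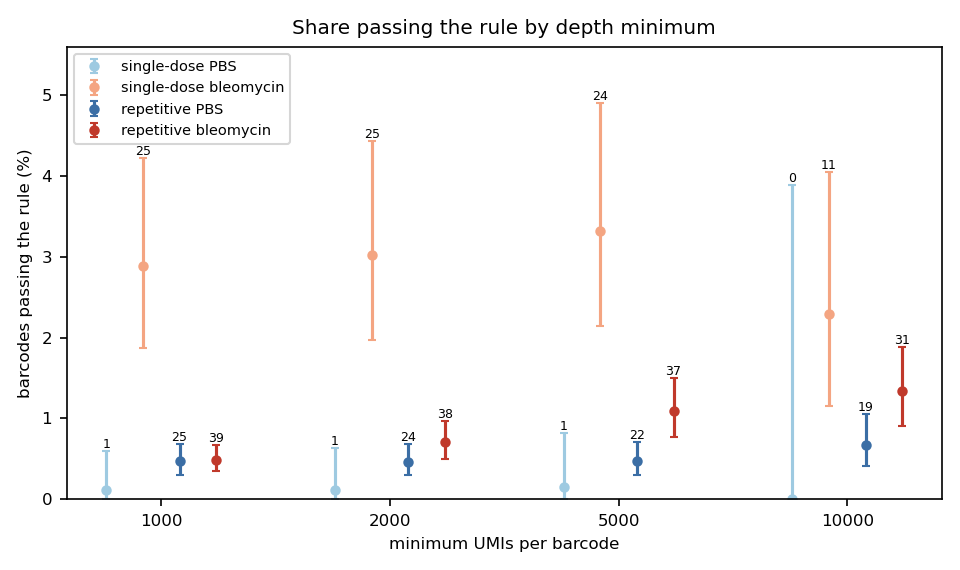
Percentage of barcodes passing the rule (vertical axis) among barcodes that reached the minimum depth on the horizontal axis, in 4 sorted-lung libraries; points are shares, bars exact 95% binomial intervals, and numbers the barcodes found. The repetitive libraries were close at 1000 UMIs (0.466% and 0.487%) and further apart at 5000 UMIs (0.469% and 1.09%).

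Mesothelial markers that the rule did not use were high in the several-marker barcodes. Krt19 (a simple-epithelial keratin), Gpm6a (a neuronal-type membrane glycoprotein), Pkhd1l1 and Nkain4 together reached at least 3 UMIs in 13 of 13 several-marker barcodes and in 8 of 51 single-marker barcodes, 1 of 21 in PBS and 7 of 30 in bleomycin. Of the 7 single-marker barcodes in bleomycin, 1 reached this by 41 Krt19 UMIs alone, and it also had 2188 Sftpc and 8 Epcam UMIs. The 4 genes were picked from the list of other mesothelial markers after their values had been seen. They had no UMI in 36 of the 51 single-marker barcodes. At least 3 UMIs were found in 264 of 9849 reference barcodes and in 36 of 846 Ptprc-positive barcodes. Reaching 3 UMIs depends on depth. Median depths were 13857 UMIs in several-marker and 13775 in single-marker barcodes of PBS, and 19907 and 12980 in bleomycin.

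Krt19 stood at 643 CPM (437 to 913) in several-marker and 18.5 CPM (6.01 to 43.2) in single-marker barcodes of PBS. One of the PBS several-marker barcodes held 22 Krt19 UMIs, and the others held 2 to 4. In bleomycin Krt19 stood at 561 CPM (463 to 675) and 335 CPM (283 to 395). Its 144 UMIs in single-marker barcodes lay in 6 of 30, with 41 of them in the barcode that had 2188 Sftpc UMIs. In the reference it stood at 0.130 and 0.555 CPM. Gpm6a was found mainly in several-marker barcodes, with 477 and 656 CPM there, 3.70 and 9.32 CPM in single-marker barcodes, and 4 UMIs in all reference barcodes together (1 in PBS and 3 in bleomycin). In bleomycin it was uneven, with 50 and 54 UMIs in 2 of the 9 several-marker barcodes and none in 4. Pkhd1l1 stood at 892 and 432 CPM in several-marker barcodes against 7.40 and 23.3 CPM in single-marker barcodes, and in bleomycin 2 several-marker barcodes held 33 and 44 UMIs while 4 of 9 had none. Nkain4 stood at 1432 and 810 CPM against 29.6 and 186 CPM. Muc16, the CA125 mucin, had UMIs in 2 several-marker barcodes of each library and in no single-marker barcode. Calb2 (calretinin), a classical mesothelial protein marker, had no UMI in any of the 64 barcodes.

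Over the list of 17 other mesothelial markers, the median log2 ratio of several-marker over single-marker barcodes was 5.05 in PBS and 2.13 in bleomycin, beside −0.49 and 0.08 over all genes with a UMI. At a mean of at least 25 CPM, 11 of 13 genes in PBS and 12 of 15 in bleomycin were at least 2-fold higher in the several-marker barcodes, beside 26.3% and 13.3% of all genes at that level. The adventitial FB markers went the other way, with medians of −3.24 and −2.94 and 9 of 10 genes at least 2-fold lower in each library, beside 18.7% and 10.9% of all genes. Ebf1, a transcription factor, stood at 1025 and 568 CPM in single-marker barcodes and had no UMI in the several-marker barcodes, which allows up to 76.5 CPM in PBS and 18.3 CPM in bleomycin. Lum (lumican) and Ccl11 (eotaxin) likewise had no UMI in the 13 several-marker barcodes, and in single-marker barcodes Lum stood at 377 and 505 CPM and Ccl11 at 659 and 238 CPM. Pi16, a marker of adventitial progenitors, stood at 910 and 424 CPM in single-marker barcodes, and at 0 and 4.97 CPM in several-marker barcodes.

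Dcn (decorin) was the exception among the adventitial genes. It stood at 13488 CPM in several-marker and 13011 CPM in single-marker barcodes of PBS, and at 5603 and 9735 CPM in bleomycin, against 1804 and 2823 CPM in the reference. It gave nearly the whole adventitial sum of the several-marker barcodes, so that all 13 had more UMIs of 5 adventitial than of 5 alveolar genes although their other adventitial genes were low. In all, 62 of the 64 barcodes leaned to the adventitial genes in this way, against 14.2% of the PBS and 43.7% of the bleomycin reference barcodes.

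The interferon and MHC list, which holds antigen presentation genes, was higher in the several-marker barcodes of PBS and of the single-dose bleomycin library. Its median was 2.33 in PBS, with 14 of 14 genes at least 2-fold higher (26.3% over all genes), and 1.84 after a single dose of bleomycin, with 13 of 14 higher (17% over all genes). In repetitive bleomycin it was 0.48, with 2 of 11 higher and 2 lower (13.3% and 10.9% over all genes). H2-K1, an MHC class I heavy chain, stood at 3029.6 CPM against 603 CPM in PBS and at 1932 against 1162 CPM in bleomycin. The chemokine and cytokine list had medians of 0.09 and −1.05, with 2 of 13 genes higher and 4 lower in PBS and 3 of 13 higher and 7 lower in bleomycin. Over all genes 26.3% were higher and 18.7% lower in PBS, and 13.3% and 10.9% in bleomycin. Ptgs2, the inducible cyclooxygenase, stood at 2083 and 734 CPM in single-marker barcodes and had 0 and 3 UMIs in the several-marker barcodes, and Ptx3, a soluble pattern recognition protein, stood at 499 and 394 CPM against no UMI. Ptx3 was uneven, with UMIs in 6 of 21 and 8 of 30 single-marker barcodes and up to 52 and 86 UMIs in 1 barcode. The 4 several-marker barcodes of PBS held 48191 UMIs in all, so each of these values rests on a few barcodes.

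**Figure D3:**
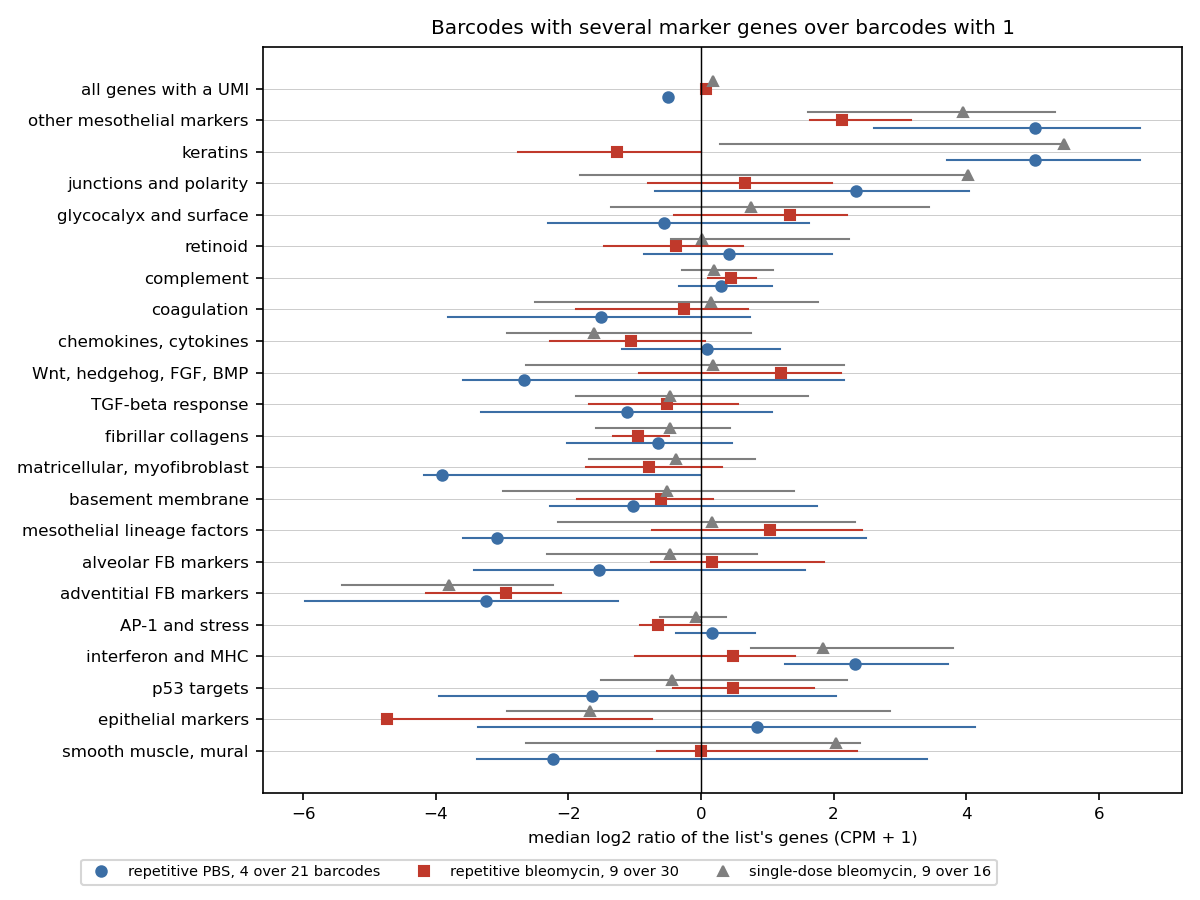
Median log2 ratio (CPM + 1) of each gene list for several-marker over single-marker barcodes in the repetitive PBS, repetitive bleomycin and single-dose bleomycin libraries; bars run between the medians of the genes' lower and upper counting bounds. The other mesothelial markers lie to the right (5.05, 2.13 and 3.95) and the adventitial FB markers to the left (−3.24, −2.94 and −3.80) in all 3 libraries.

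The single-dose bleomycin library, which the rule had not used, gave a similar division. There the rule found 25 of 867 barcodes (2.88%, 1.87 to 4.23), and in the single-dose PBS library 1 of 936 (0.107%, 0.00270 to 0.594). Of the 25, 9 were several-marker and 16 had Wt1 alone. The 4 genes above reached 3 UMIs in 8 of 9 and 1 of 16 barcodes, whose median depths were 14864 and 8631.5 UMIs. Upk3b and Lrrn4 occurred together in 6 of the 9 several-marker barcodes. The median log2 ratio of several-marker over single-marker barcodes was 3.95 for the other mesothelial markers, with 14 of 14 genes at level at least 2-fold higher, and −3.80 for the adventitial markers, with 8 of 10 lower. Over all genes it was 0.18, with 17% higher and 12.5% lower. Ebf1 again had no UMI in the several-marker barcodes and stood at 371 CPM in the single-marker ones. The labels give the single dose of bleomycin as 4 U/kg in the treatment field and as 2 U/kg in the protocol.

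Against the Pdgfra-positive reference, the 64 barcodes differed in many genes. Since the rule chose them on counts of the same cells, these differences are a description. In PBS, 747 of 5740 genes at a mean of at least 25 CPM were at least 2-fold higher in the selected barcodes (13%) and 635 were lower (11.1%). In bleomycin, 620 of 6093 were higher (10.2%) and 550 lower (9.03%). In both libraries 346 of 5359 genes were higher (6.46%) and 322 lower (6.01%).

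The other mesothelial markers had a median log2 ratio of 3.17 in PBS and 3.78 in bleomycin. At level, 6 of 9 and 11 of 12 genes were at least 2-fold higher, and 1 was lower in each library. The list summed to 2035 and 3116 CPM, against 1584 and 688 CPM in the reference. Of all genes at level, 13% and 10.2% were higher and 11.1% and 9.03% lower. The median over all genes was −0.10 and −0.09. In the several-marker barcodes alone the median was 5.27 in PBS and 4.39 in bleomycin, and in the single-marker barcodes alone 0.13 and 2.41. Rspo1, a secreted Wnt pathway enhancer, was found in both kinds, in 15 of 21 and 18 of 30 single-marker barcodes, and stood at 182 and 114 CPM in the selected against 3.93 and 7.79 CPM in the reference barcodes. Upk1b, another uroplakin, had UMIs in several-marker barcodes only, where it stood at 125 and 69.5 CPM against 126 and 65.6 CPM in the reference.

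The study named its mesothelial FBs (MEFBs) by Clu, Wnt4 and Wt1, of which Wt1 belongs to the rule. Clu (clusterin) stood at 229 and 607 CPM against 4.10 and 29.9 CPM in the reference. It had UMIs in all 13 several-marker barcodes and in 5 of 21 and 9 of 30 single-marker barcodes, and its highest count, 89 UMIs, was in a single-marker barcode. Wnt4, a signalling ligand, stood at 113 and 547 CPM against 36.8 and 26.2 CPM. Per total UMIs it was higher in the several-marker (685 and 974 CPM) than in the single-marker barcodes (11.1 and 347 CPM). In PBS, however, Wnt4 had UMIs in only 2 of the 4 several-marker barcodes, and 1 of them held 24. Cxcl13, a B cell chemokine, stood at 1196 CPM in PBS and 3061 CPM in bleomycin, against 1.92 and 53.8 CPM in the reference. It was uneven within each kind. In PBS it ran from 0 to 4 UMIs (median 0.5) in several-marker and from 0 to 132 (median 1) in single-marker barcodes, and in bleomycin from 0 to 557 (median 56) and from 0 to 548 (median 1).

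Alveolar FB genes were low. Their median log2 ratio was −3.47 in PBS, with 12 of 13 genes at least 2-fold lower, and −3.11 in bleomycin, with 11 of 13 lower. Npnt (nephronectin) stood at 18.8 and 79.3 CPM against 1765 and 1096 CPM, and Tcf21, a transcription factor of LipoFBs, at 9.42 and 14.3 CPM against 457 and 193 CPM. Igfbp3 was not low. It stood at 458 and 167 CPM against 517 and 70.1 CPM. Adventitial markers had medians of 2.75 and 1.11, with 8 of 10 and 5 of 10 genes higher. Over all genes, 13% and 10.2% were higher and 11.1% and 9.03% lower. Chemokines and cytokines had medians of 2.77 and 1.22 (10 of 12 higher in PBS, 8 of 14 higher and 2 lower in bleomycin), and complement genes 1.33 and 0.12. C3, the central complement component, stood at 4649.9 and 4291 CPM against 1054 and 1762 CPM and had UMIs in 24 of 25 and 39 of 39 barcodes. Complement was not raised in the single-marker barcodes over the reference barcodes that leaned to the adventitial genes. There the complement medians were −0.39 and −0.37, with sums of 8339 against 7701 CPM in PBS and 7913 against 8603 CPM in bleomycin. The chemokine and cytokine medians there were 1.41 and 0.75.

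**Figure D4:**
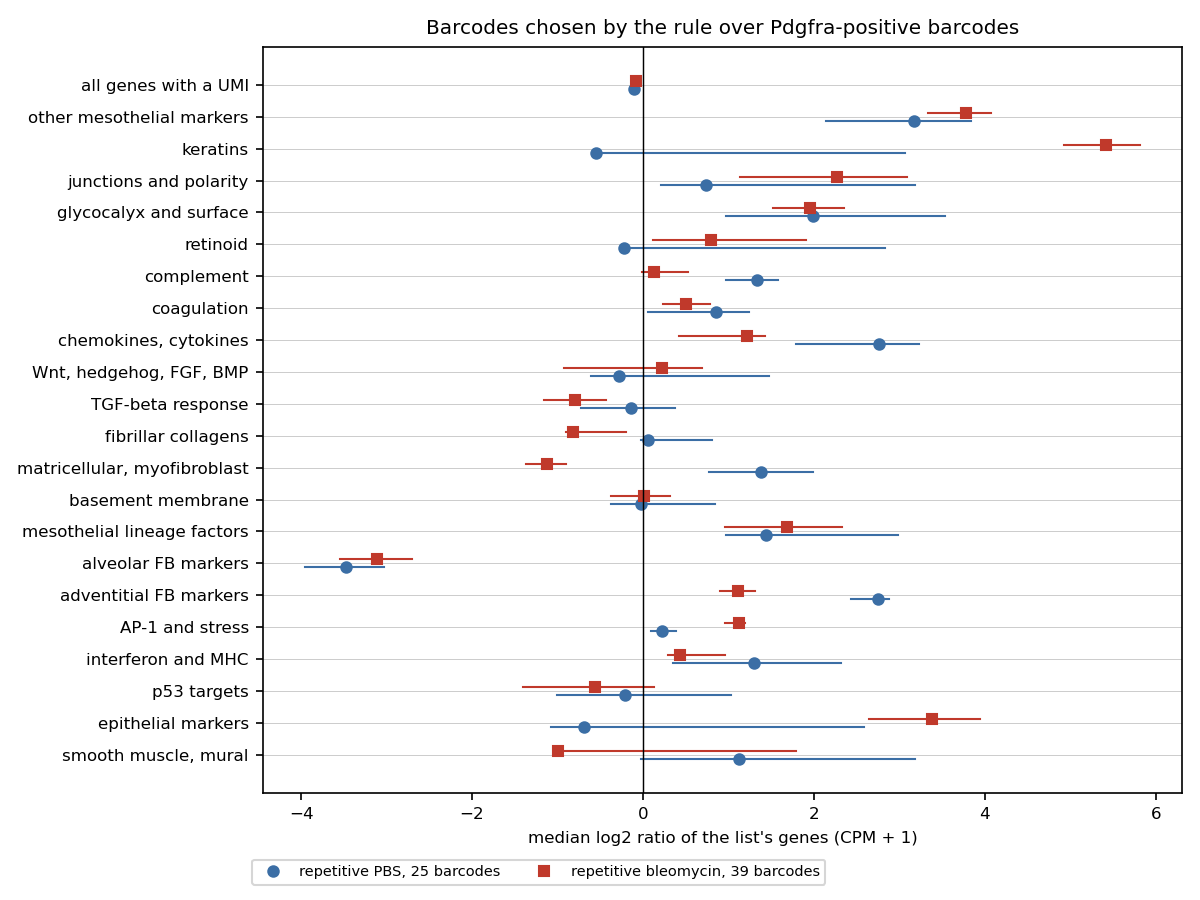
Median log2 ratio (CPM + 1) of each gene list for the selected barcodes over Pdgfra-positive reference barcodes in the PBS (circles) and bleomycin (squares) libraries; bars run between the medians of the genes' counting bounds. Other mesothelial markers (3.17 and 3.78) are far to the right and alveolar FB markers (−3.47 and −3.11) far to the left.

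Genes outside the lists were named by the rank of their ratio over the reference. Fabp4, a fatty acid binding protein, had a PBS level of 223 CPM (174 to 281) and a bleomycin level of 422 CPM (373 to 476), against 0.0932 and 2.16 CPM in the reference. Its highest barcode held 46.5% of its PBS UMIs. Hdc (histidine decarboxylase) stood at 148 and 111 CPM against 0.447 and 0.329 CPM. Sntg1 (a syntrophin) had UMIs in 18 of 25 and 30 of 39 barcodes and stood at 587 and 1039 CPM against 7.51 and 15.9 CPM. Fabp5, another fatty acid binding protein, stood at 261 and 775 CPM against 6.56 and 17.8 CPM, and within the selected barcodes at 1598 and 1560 CPM in several-marker and 22.2 and 408 CPM in single-marker ones. Alkal2, a ligand of ALK receptors, was the reverse, with 0 and 4.97 CPM in several-marker and 189 and 109 CPM in single-marker barcodes. Col6a5, Smpd3 and Eya2 were also among the genes highest over the reference, at 179, 166 and 107 CPM in PBS and 219, 168 and 74.5 CPM in bleomycin.

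Among the lowest genes, Lrat, the retinol esterifying enzyme of lipid-storing FBs, had no UMI in any of the 64 barcodes. This allows up to 11.6 CPM in PBS and 5.85 CPM in bleomycin, against 222 and 102 CPM in the reference. Slc38a5, an amino acid transporter, also had none in them, against 135 and 77.1 CPM. Nox4, an oxidant-producing oxidase of FBs, stood at 25.1 and 42.8 CPM against 1147 and 953 CPM. Scn3a, Adra1a, Scube2, Dach1, Ednra, Ccn5 and Adamtsl2 completed this group, with 0 to 12.6 CPM in the selected and 65.3 to 358 CPM in the reference barcodes of the 2 libraries.

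The single-marker barcodes were also set beside the 693 PBS and 2169 bleomycin reference barcodes that leaned to the adventitial genes. These reference barcodes were chosen for 5 of the 10 adventitial and 5 of the 13 alveolar markers, so both lists are partly set by that choice. Adventitial markers had medians of 0.35 in PBS and 0.36 in bleomycin with 8 and 9 of 10 genes within 2-fold, and alveolar markers −1.45 and −2.12. The other mesothelial markers had medians of 0.45 and 2.16, with 2 of 3 and 5 of 6 genes at level higher and 1 lower in PBS. Fibrillar collagens had medians of −0.45 and −1.04, with 1 of 7 lower in PBS. In bleomycin 5 of 8 collagens were lower and 1 higher. AP-1 and immediate early stress genes had medians of −0.09 and 1.17, with 2 of 15 lower in PBS and 10 of 15 higher in bleomycin. Over all genes, 11.3% were higher and 8.77% lower in PBS, and 9.24% were higher and 7.93% lower in bleomycin. Some genes, picked by their values, were higher than in these reference barcodes. Ebf1 stood at 1025 against 336 CPM and at 568 against 264 CPM, Cd55 (decay-accelerating factor) at 692 against 93.5 CPM and at 480 against 71.2 CPM, and Gja1 (connexin 43) at 285 against 18.2 CPM and at 289 against 26.6 CPM. The single-marker barcodes include the 2 with Msln alone, 1 of which carried Sftpc and Epcam. Of all single-marker barcodes, 1 of 21 in PBS and 7 of 30 in bleomycin had at least 3 UMIs of Krt19, Gpm6a, Pkhd1l1 and Nkain4 together.

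Between the libraries, the matrix gene lists of all 64 barcodes had smaller ratios than those of the reference barcodes. Of 5895 genes at level, 445 were at least 2-fold higher in bleomycin (7.55%) and 370 lower (6.28%), where in the reference barcodes 248 of 5753 were higher (4.31%) and 154 lower (2.68%). The selected groups are small, and counting error alone is larger in them. The fibrillar collagens had a median log2 ratio of 0.58 in the selected barcodes and 1.71 in the reference barcodes, beside 0.18 and 0.04 over all genes. At level, 2 of 7 collagen genes were at least 2-fold higher in the selected barcodes and 6 of 7 in the reference. The matricellular and myofibroblast genes had medians of 0.09 and 1.73. These medians depended on which barcodes were taken. In the several-marker barcodes alone the matricellular median was 2.58, with medians of the counting bounds of −1.31 and 3.37 and a median of 0.86 over the 5 genes at level, and without barcodes above 3 times the median depth it was −0.98. The collagen median was −0.14 in barcodes without Pdgfra UMIs and 1.00 with equal weight per barcode. The difference between the selected and reference ratios was not tested.

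The selected barcodes of PBS held Col1a1 at 741 CPM (649 to 842) and those of bleomycin at 1108 CPM (1028 to 1194), a log2 ratio of 0.58 (0.37 to 0.80), against 679 and 2707 CPM in the reference, a log2 ratio of 1.99 (1.98 to 2.01). Col3a1 gave 1623 and 2637 CPM (log2 ratio 0.70, 0.56 to 0.84) against 1213 and 5074 CPM (2.06, 2.05 to 2.08). In the several-marker barcodes alone, Col1a1 stood at 706 and 656 CPM (−0.11, −0.66 to 0.48) and Col3a1 at 2199.6 and 2052 CPM (−0.10, −0.41 to 0.22). Collagen transcripts were present in nearly every selected barcode, with Col1a1 UMIs in 24 of 25 and 38 of 39.

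The matricellular and myofibroblast genes of the bleomycin selected barcodes had a median log2 ratio over the reference of −1.13. Of 14 genes at level, 7 were at least 2-fold lower (9.03% over all genes) and 2 higher (10.2%). Spp1 (osteopontin) had 7 UMIs in PBS and 6 in bleomycin selected barcodes, 22.0 and 9.51 CPM, where the reference held 1.34 and 1198 CPM. The 7 UMIs lay in 1 barcode, and the 6 UMIs in 6 barcodes, 1 in each. Tnc (tenascin C) had no UMI in PBS and 6 in bleomycin (9.51 CPM), against 176 and 510.4 CPM. Timp1 (a metalloproteinase inhibitor) stood at 9.42 and 38.1 CPM against 81.8 and 458 CPM, and Ltbp2 at 12.6 and 69.8 CPM against 10.4 and 526 CPM. Cthrc1, a marker of activated FBs, had 3 UMIs in PBS and none in bleomycin selected barcodes, against 0.410 and 29.6 CPM. Fn1 (fibronectin) did not share this pattern, at 1469 and 3018 CPM against 782 and 3034 CPM. Spp1 was more widespread in the single-dose bleomycin library, with UMIs in 24 of 25 selected barcodes (median 3, at most 11). The list had a median over the reference of −2.62 in that library.

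AP-1 and immediate early stress genes, which react to cell handling, differed between libraries in the reference and less so in the selected barcodes. Bleomycin over PBS, their median log2 ratio came to −1.01 in the reference, −1.27 in the adventitial-leaning reference and −0.17 in the selected barcodes. Fos stood at 2489.8 and 3118 CPM in the selected and 2626 and 1430.2 CPM in the reference barcodes, and Atf3 at 1576 and 1489 CPM against 867 and 207 CPM. The part of handling in the other differences between libraries was not tested.

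Genes on no list were named by the rank of their ratio between the libraries. The several-marker barcodes held 48191 of the 318501 UMIs of the PBS selected barcodes and 201312 of the 630597 of the bleomycin ones, so the kinds were mixed in unequal parts. Ccnd1 (cyclin D1) stood at 18.8 CPM in PBS and 274 CPM in bleomycin, a log2 ratio of 3.79 (2.68 to 5.14), and in the several-marker barcodes at 83.0 and 561 CPM. In the reference it stood at 6.76 and 38.3 CPM, a log2 ratio of 2.34 (2.19 to 2.49). Tmem108 stood at 34.5 and 317 CPM (3.16, 2.31 to 4.15) and hardly at all in the reference (0.149 and 0.370 CPM). Pcdh15, a protocadherin, stood at 31.4 and 339 CPM, Lrp2 (megalin) at 9.42 and 105 CPM, and Aqp5, a water channel, at 31.4 and 246 CPM. One bleomycin barcode held 52.3% of the Aqp5 UMIs. Gatm, an enzyme of creatine synthesis, stood at 44.0 and 389 CPM (3.12, 2.35 to 3.98). Ndnf, Alcam, Serpinb1a and Serpinb6b were likewise higher, at 3.14 to 18.8 CPM in PBS and 85.6 to 182 CPM in bleomycin.

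Among genes lower in bleomycin, Ptgs2 stood at 1768 and 504 CPM, a log2 ratio of −1.81 (−2.01 to −1.61), and Has1, a hyaluronan synthase, at 1049 and 224 CPM (−2.22, −2.52 to −1.94). In the adventitial-leaning reference barcodes the same ratios were −1.84 for Ptgs2 and −1.82 for Has1. Ccl2, a monocyte chemokine, stood at 857 and 144 CPM (−2.56, −2.92 to −2.22). Lgr5, a receptor for R-spondins, stood at 311 and 61.9 CPM, but 1 barcode held 87.9% of its PBS UMIs. Usp53, Rnd1, Homer1, Trmt61b, Gm17268, Mcoln2 and Rgs6 gave 69.1 to 207 CPM in PBS and 3.17 to 36.5 CPM in bleomycin.

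**Figure D5:**
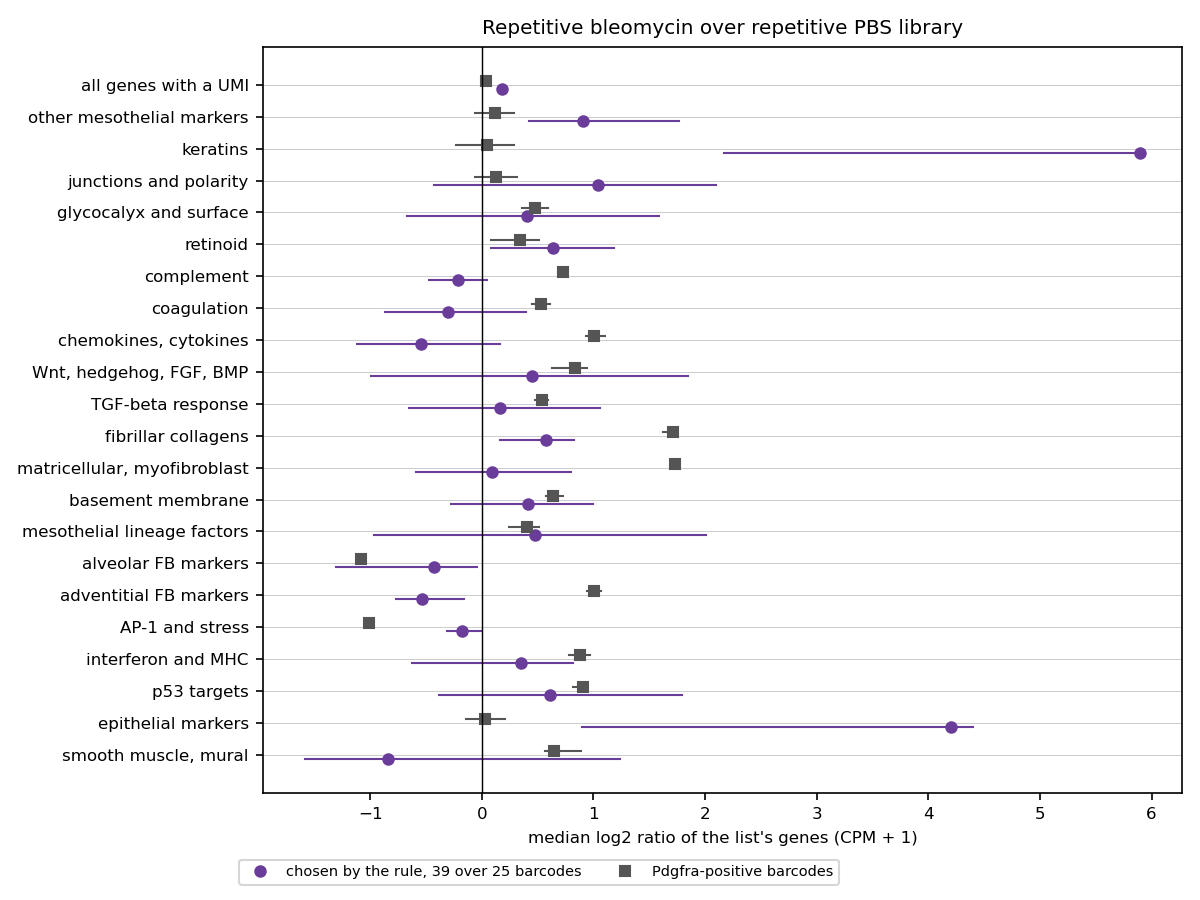
Median log2 ratio (CPM + 1) of each gene list for the bleomycin over the PBS library, in the selected barcodes (circles) and the Pdgfra-positive reference barcodes (squares); bars run between the medians of the genes' counting bounds. Fibrillar collagens (0.58 and 1.71) and matricellular genes (0.09 and 1.73) lie further right in the reference, while 1 bleomycin barcode held 98.5% of the epithelial marker UMIs and 37.7% of the keratin UMIs of the bleomycin selected barcodes.

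Markers of other cell types were checked in the selected barcodes. One bleomycin barcode, chosen by 3 UMIs of Msln alone, had 37214 UMIs, of which 2188 were Sftpc (surfactant protein C) and 8 Epcam, with no Pdgfra. It held 98.5% of the epithelial marker UMIs and 37.7% of the keratin UMIs of the bleomycin selected barcodes. Without it, the median of the epithelial list over the reference was −0.49 in place of 3.38, that of the keratins 2.58 in place of 5.42 and that of the junction genes 0.98 in place of 2.27. In the PBS selected barcodes 7 of 10 epithelial markers were at 0, Epcam among them, and the sum was 40.8 CPM against 285 CPM in the reference.

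The 10 immune markers summed to 6.28 CPM in PBS and 50.7 CPM in bleomycin selected barcodes, against 59.7 and 1153 CPM in the reference. The 7 endothelial markers summed to 56.5 and 34.9 CPM against 10.8 and 15.2 CPM, with Cldn5 and Tie1 at 0 in both libraries. The 9 smooth muscle and mural markers summed to 254 and 385 CPM against 74.3 and 217 CPM, with Cnn1, Actg2, Rgs5 and Mcam at 0 in both. Hemoglobin genes had no UMI. The part of cells caught in the same droplet in any of these values was not tested.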

How the data were processed

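Droplet libraries of GFP+ lung cells were made and counted by the authors with Cell Ranger 3.0.1, and the deposited files hold raw UMI counts for each barcode and gene symbol. The submitters' processing notes also name Seurat 3. The study's methods give GRCm38 and GENCODE M17. The repetitive tables hold 32285 gene rows and the single-dose ones 30830 and 30828 rows, so an annotation shared by all was not established. Each condition had 1 library of 3 pooled mice.

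Counts were read with Python 3.11.15, numpy 2.4.6 and scipy 1.17.1, and figures were drawn with matplotlib 3.10.9. UMIs were summed over the barcodes of a group and given as CPM. Log2 ratios were taken after adding 1 CPM, with exact 95% conditional intervals, and CPM and shares with exact Poisson and Clopper-Pearson intervals. These cover counting error only. A gene at level had a mean of at least 25 CPM in the groups compared, and called means a ratio of at least 2-fold. Counts of list genes are over genes at level, and list medians over list genes with a UMI in either group. No test was made between conditions. The intervals and calls were tried on simulated Poisson counts without spread between barcodes. That check therefore does not cover groups of few and uneven barcodes. Total counts were 64697147 and 68354458 UMIs.

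The members and the 28 gene lists were chosen with earlier results of these data known. The adventitial and alveolar lists hold genes that the study's cluster markers from the single-dose libraries also contain, so they are not independent of this series. Named genes were the rule's 4 genes, listed genes, and, outside the lists, the 10 highest and 10 lowest in each main comparison with UMIs in at least 20% of the barcodes of the higher group, 1 of which is not reported here. The split into several-marker and single-marker barcodes as groups, the adventitial-leaning reference, the sum of 4 markers and the thinned share with 1 UMI were chosen after values had been seen. Alternatives changed the marker and depth minimum, the reference, the CPM minimum, the pseudocount and the weighting of barcodes. Sequences were taken from RefSeq and gene ends from the GRCm38 annotation GENCODE M21.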

Additional observations from a re-analysis of the deposited data

Results flagged for a closer look

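Several lists had medians of opposite sign in groups compared under the same contrast, and none of these differences was tested. For bleomycin over PBS, chemokines and cytokines had a median log2 ratio of −0.55 in the selected barcodes and 1.00 in the reference barcodes. Adventitial FB markers gave −0.53 and 1.01, and smooth muscle and mural markers −0.84 and 0.65. Over smooth muscle and mural genes at level (3 and 2 genes) the medians were 0.58 and 1.41, of the same sign. The reference of the bleomycin library held more adventitial-leaning barcodes (43.7% against 14.2% in PBS), and within adventitial-leaning reference barcodes the medians were 0.11 for chemokines, −0.39 for adventitial markers and 1.17 for smooth muscle markers. The part of this makeup in the pooled values was not tested.

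For selected over reference barcodes, the sign differed between PBS and bleomycin for keratins (−0.55 and 5.42), epithelial markers (−0.69 and 3.38), matricellular and myofibroblast genes (1.38 and −1.13) and smooth muscle and mural markers (1.13 and −0.99). Over genes at level the smooth muscle medians were 1.64 and 0.44 (2 genes each), and the keratin sums were 113 and 588 CPM against 1.73 and 1.87 CPM in the reference, so neither list was lower than the reference in these measures. For keratins and epithelial markers, 1 bleomycin barcode with Sftpc and Epcam carried 37.7% and 98.5% of the UMIs of the bleomycin selected barcodes.

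The rule also found barcodes in the organoid libraries, which no comparison used. It found 195 of 4754 (4.10%) with normal FBs and 242 of 7640 (3.17%) with fibrogenic FBs, against 0.466% in the sorted PBS lung. These shares are not at equal depth. The barcodes found had median UMIs of 47858 and 51022.5 in the organoids and 13775 in PBS lung. Msln alone accounted for 175 and 201 of the organoid barcodes found, Sftpc had UMIs in 195 and 241, and Epcam in 177 and 209. By these genes the organoid barcodes were unlike the several-marker barcodes of sorted lung, in which Epcam had no UMI.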

How the results depend on the processing

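With 1 library per condition nothing was tested, and the spread between mice, which leaving out a replicate would show, cannot be seen. No paired analysis was possible because each condition had 1 library. Requiring at least 2 different marker genes left 4 PBS and 9 bleomycin barcodes. The shares then fell to 0.0746% and 0.112%, and the other mesothelial markers had medians over the reference of 5.27 and 4.39, the matricellular genes 2.58 (bleomycin over PBS), and 1070 and 1186 genes were higher and lower in bleomycin. With single-marker barcodes alone, the mesothelial medians were 0.13 and 2.41. Without Pdgfra UMIs, 4 and 8 barcodes were left, with shares of 0.0746% and 0.0999%, a mesothelial median of 3.93 in PBS, 1194 and 1559 genes higher and lower in bleomycin, and a collagen median of −0.14. Leaving out barcodes above 3 times the median depth left 9 bleomycin barcodes (0.153%), none of them several-marker, since those had at least 14711 UMIs: the mesothelial median in bleomycin turned to −0.29, the matricellular median was −0.98, and 913 and 912 genes were higher and lower. Minimum depths of 2000 and 5000 UMIs gave bleomycin shares of 0.707% and 1.09%, and thinning gave 0.0745% and 0.0455%. A pseudocount of 5 CPM gave a mesothelial median of 2.67 in bleomycin. Equal weight per barcode gave a collagen median of 1.00. With a minimum of 50 CPM, 219 genes were higher than the reference in both libraries, and 180 and 191 were higher and lower in bleomycin. With no minimum these were 1041 higher and 1231 lower than the reference, and 3743 and 1774 between libraries. At least 5 marker UMIs turned the matricellular median from 0.09 to −0.10, both within 2-fold. The other alternatives kept counts within 1.5 times and signs as reported. Depth limits the several-marker barcodes of PBS, where 1 UMI is 20.8 CPM.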

Other observations

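The rule gave 1 barcode in the single-dose PBS library, with 7758 UMIs, 3 UMIs of Wt1 and 1 of Upk3b.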
